A study of Homo sapiens with 12 samples.

Results

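Collagen genes encode the structural proteins of the extracellular matrix. The collagen genes examined here were all autosomal protein-coding genes of the GENCODE annotation (release 44, genome build hg38) whose symbol consists of COL, a number, A and a number. This gave 42 genes of 19111 autosomal protein-coding genes. H3K27me3, the trimethylation of histone 3 at lysine 27, was measured by chromatin immune precipitation and sequencing (ChIP-seq) in human SH-SY5Y neuroblastoma cells. This neuroblastoma line was analysed as Tau expressing cells (WT) and as 2 Tau knock-out (Tau-KO) lines derived from it, 231K and 232P, in 2 biological replicates per genotype, without treatment. All lists thus come from descendants of 1 tumour line, and each knock-out genotype is represented by 1 line, so that a difference between lines cannot be told apart from a difference by Tau. The comparison addresses whether loss of Tau changes where the repressive H3K27me3 mark lies.

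A collagen molecule is built from alpha chains that wind around each other into a stiff helix. Fibrillar collagens form the cross-striated fibrils of skin, bone, tendon and cartilage, fibril-associated collagens decorate them, and others build basement membranes, beaded filaments, hexagonal networks or proteins that span the cell membrane. H3K27me3 is deposited by the Polycomb Repressive Complex 2 (PRC2), often over CG-rich promoters of genes that a cell type does not use, and matrix genes of mesenchymal cells are among the genes that neural cells do not use.

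Each sample had 1 peak list. WT replicates 1 and 2 held 285826 and 222191 peaks, 231K replicates held 271413 and 212347, and 232P replicates held 147118 and 199677. The peaks covered 214 and 283 Mb in WT, 197 and 290 Mb in 231K, and 70.3 and 212 Mb in 232P. The replicate 2 lists of all genotypes had wider peaks, with medians of 682, 688 and 666 bp in WT, 231K and 232P, than the replicate 1 lists, with 441, 440 and 335 bp. The 232P replicate 1 list covered the least of the genome and stood apart from the others. Relative to WT replicate 1 (100%), the depth recovered from the local background was 66.6% in WT replicate 2, 94.8% and 68.7% in 231K, and 68.1% and 56.9% in 232P. A missing peak therefore tells that the peak caller listed nothing there at that depth, and no more. Whether the replicates came from separate cultures beyond being called biological replicates is not given, and a p-value measures only the spread between these samples. The names of single peaks inside the 232P lists start with 231P, and the sample labels were followed. The study names 231P as a separate Tau-KO line, used for its RNA sequencing. Every value given here for 232P thus rests on the sample labels, and which of these lines the lists come from was not tested.

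A gene had a TSS mark in a list if any peak came within 1 kb of an annotated transcription start site (TSS) of the gene, upstream or downstream. The strength of a peak was read as the deposited fold enrichment over local background and as its -log10 q-value. The -log10 q-value grows with depth and was ranked as a percentile within its list. Fold enrichment also depends on depth, since its ratio adds 1 to reads and to background. The starts of the genes on which the results turn are shown as promoter sequences from RefSeq (GRCh38.p14, 250 bases before to 50 bases after the start), with every CG dinucleotide in capitals. Of the 42 collagen genes, 30 had an entry in that table. COL8A1 and COL1A1 had none. COL12A1 ranks highest among the marked genes by the lowest percentile over the lists and COL25A1 next after COL8A1, COL4A3 shares its start region with COL4A4, and COL23A1 is the longest collagen gene with no TSS mark in any list. COL12A1 lies on the minus strand at chr6:75206004-75206303, COL25A1 on the minus strand at chr4:109302609-109302908, COL4A3 on the plus strand at chr2:227164374-227164673 and COL23A1 on the minus strand at chr5:178590344-178590643.
COL12A1: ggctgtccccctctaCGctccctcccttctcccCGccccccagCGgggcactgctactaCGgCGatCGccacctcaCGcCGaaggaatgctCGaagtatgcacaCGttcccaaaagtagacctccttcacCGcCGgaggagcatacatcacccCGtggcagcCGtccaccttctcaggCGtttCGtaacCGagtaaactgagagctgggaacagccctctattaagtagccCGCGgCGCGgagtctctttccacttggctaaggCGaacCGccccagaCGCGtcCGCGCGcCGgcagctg
COL25A1: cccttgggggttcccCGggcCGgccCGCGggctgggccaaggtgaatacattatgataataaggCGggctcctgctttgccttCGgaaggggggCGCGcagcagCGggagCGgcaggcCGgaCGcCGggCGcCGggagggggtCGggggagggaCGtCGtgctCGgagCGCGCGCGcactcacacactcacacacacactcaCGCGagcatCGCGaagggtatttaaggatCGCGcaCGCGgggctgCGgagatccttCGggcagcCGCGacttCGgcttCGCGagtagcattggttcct
COL4A3: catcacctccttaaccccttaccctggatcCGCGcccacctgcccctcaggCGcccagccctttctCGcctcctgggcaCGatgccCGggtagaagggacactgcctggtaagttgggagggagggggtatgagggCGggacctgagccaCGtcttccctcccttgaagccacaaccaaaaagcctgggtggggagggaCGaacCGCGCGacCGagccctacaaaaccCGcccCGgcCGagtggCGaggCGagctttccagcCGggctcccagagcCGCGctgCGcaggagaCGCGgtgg
COL23A1: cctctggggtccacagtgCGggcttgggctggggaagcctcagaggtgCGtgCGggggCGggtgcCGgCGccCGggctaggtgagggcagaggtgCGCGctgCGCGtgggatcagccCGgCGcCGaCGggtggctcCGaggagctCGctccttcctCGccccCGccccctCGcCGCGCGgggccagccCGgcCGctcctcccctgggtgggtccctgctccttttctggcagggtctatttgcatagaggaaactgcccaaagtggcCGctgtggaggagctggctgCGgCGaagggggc

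These 300 bases held 29 CG dinucleotides in COL12A1, 38 in COL25A1, 24 in COL4A3 and 28 in COL23A1, with a median of 24 over the 14616 promoters of autosomal protein-coding genes in the table. The unmarked COL23A1 start was thus as rich in CG as the marked starts. The letters GGGCGG, on either strand and themselves containing a CG, occurred in the windows of COL12A1, COL4A3 and COL23A1 but not of COL25A1, and in 62.2% of the 14616 promoters. The letters TATAAA, on either strand, occurred in none of these 4 windows and in 9.47% of the 14616. A peak touched the COL12A1 window in 2 lists and the other 3 windows in none, since the marks of COL25A1 and COL4A3 lay on both sides of the printed bases.

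Most collagen genes were in either of 2 states in SH-SY5Y cells, marked in every list or free of peaks. A TSS mark was present in all 6 lists at 13 of 42 collagen genes (31.0%), compared with 2063 of 19111 genes (10.8%). It was present in some lists at 4 collagen genes and in no list at 25 (59.5%, against 80.4% of all genes). No peak in any list lay in 22 collagen genes (52.4%) or within 1 kb of them, against 75.0% of all genes. In WT replicates 1 and 2, 15 and 15 collagen genes had a TSS mark, in 231K 14 and 15, and in 232P 15 and 14. The number hardly moved between lists although the number of peaks did. With the canonical start alone, 11 collagen genes (26.2%) were marked in all lists, against 8.39% of all genes. The count of 13 includes weak peaks and fell to 4 (9.52%) when only peaks with a -log10 q-value of 5 or more were kept, where 548 of all genes (2.87%) were marked in all lists. These shares describe a list of genes and were not tested.

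**Figure D1:**
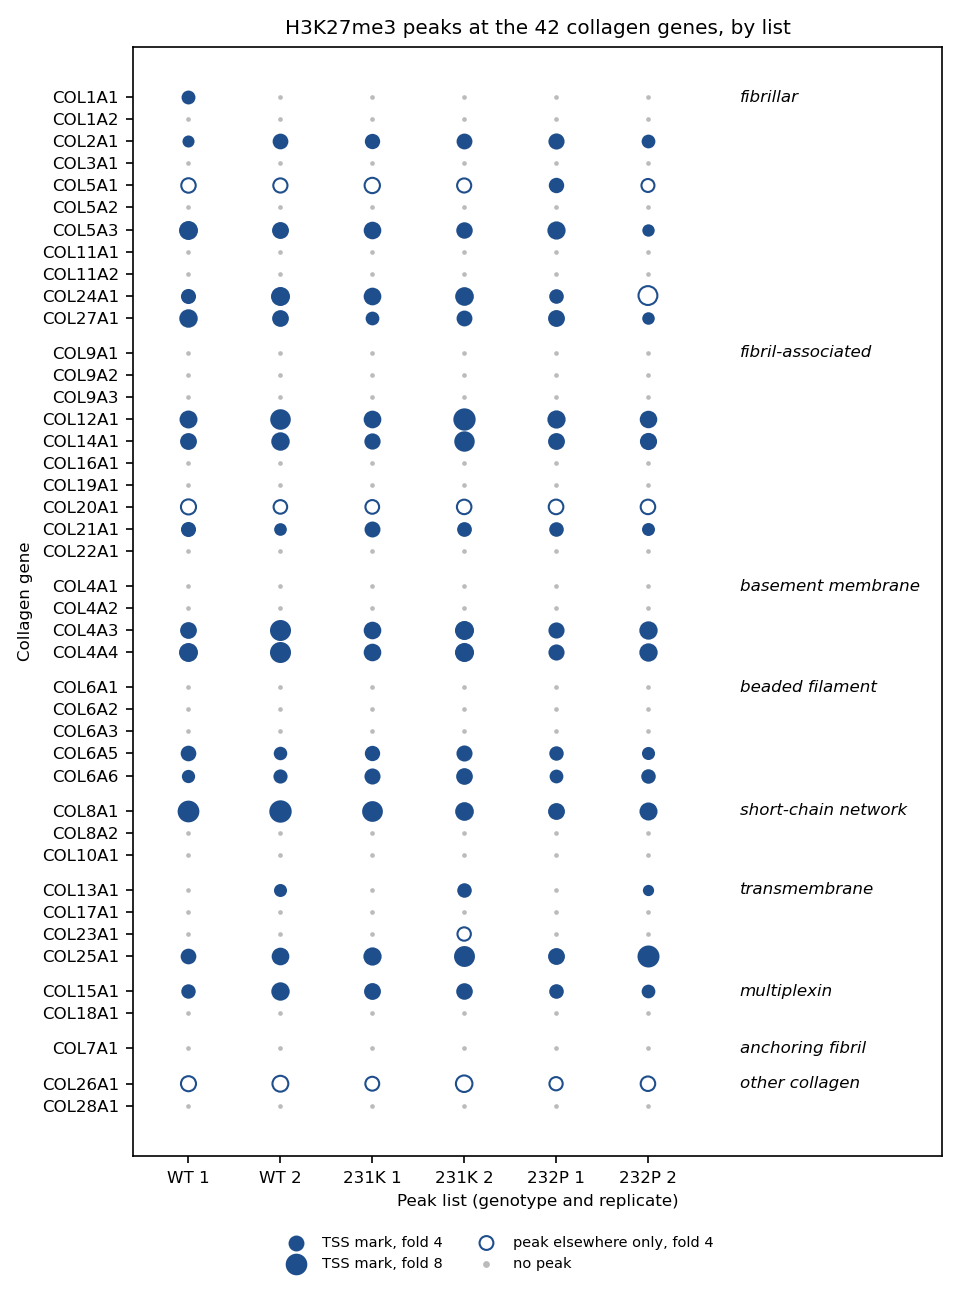
Peak state of the 42 collagen genes (rows, grouped by collagen type) in the 6 peak lists (columns). Filled circles are TSS marks, open circles are peaks elsewhere in the gene only, with the area proportional to the largest fold enrichment, and grey dots are genes without a peak; 13 genes are filled in all columns and 22 have grey dots only.

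Marked collagen genes were mostly long. Of the 24 collagen genes of 100 kb or more, 11 (45.8%) had a TSS mark in all lists, compared with 13.7% of the 3507 genes of that length. Of the 18 shorter ones, 2 (11.1%) were marked, against 10.1% of the 15604 shorter genes. The median length of a collagen gene was 133 kb, and that of all genes was 27.9 kb. Collagen genes had a median of 7.5 annotated start sites and all genes 5, and the part of length and of the number of starts in these shares was not tested.

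Both fibrillar and other collagen genes held marked and unmarked members. Of the 11 fibrillar genes, 3 had a TSS mark in all lists (27.3%), 3 in some and 5 in none, and of the 31 other collagen genes 10 (32.3%), 1 and 20. Averaged over the lists, the share with a TSS mark was instead 4.01 percentage points higher in fibrillar genes (SD 8.22 over lists). With only peaks of a -log10 q-value of 5 or more, this difference was -1.37. All lists score the same genes, and these shares were not tested. Of the summed gene length with 1 kb on each side, peaks covered 9.43% and 14.8% of the fibrillar genes in WT, 8.83% and 16.3% in 231K, and 3.77% and 11.8% in 232P. The other collagen genes were covered over 12.0% and 18.7% in WT, 12.0% and 19.9% in 231K, and 3.35% and 14.2% in 232P. The fibrillar genes were covered less in 5 lists and slightly more in 232P replicate 1.

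COL1A1, COL1A2 and COL3A1 encode the chains of type I and type III collagen, the main fibrillar collagens of skin and bone. COL1A1 (chr17:50184101-50201632) had a single peak of 350 bp upstream of its start in WT replicate 1, with a fold enrichment of 4.05 at percentile 73.0 of that list, and none in the other 5 lists. COL1A2 and COL3A1 had no peak in any list. COL3A1 and its neighbour COL5A2, a type V chain, lay together in a stretch of 5.95 Mb on chromosome 2 without a peak in any of the 6 lists, and the stretch around COL1A2 on chromosome 7 spanned 2.79 Mb. Stretches of over 100 kb without a peak in any list summed to 2049.7 Mb, with assembly gaps not left out. How many of them were as long as those around COL3A1 and COL1A2 was not counted.

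The fibrillar genes with marks in all lists were COL2A1, COL27A1 and COL5A3. COL2A1 encodes the main collagen of cartilage, and its strongest TSS peak was enriched 3.04-fold and 5.19-fold in WT, 4.92-fold and 5.28-fold in 231K, and 5.47-fold and 3.97-fold in 232P, with overlapping ranges. COL27A1, expressed in developing cartilage, had a single mark of 899 bp just upstream of its start and no other peak in its 157 kb. Its fold enrichment was 7.15 and 5.88 in WT, 3.97 and 5.28 in 231K, and 5.97 and 3.29 in 232P, so that the ranges of WT and 232P overlapped while both 231K values were under both WT values. COL5A3, a type V chain, was covered along its body, over a median of 45.6% of the gene. The mark at its start also overlapped a start of RDH8, a retinol dehydrogenase gene next to it, so that it cannot be assigned to COL5A3 alone. COL24A1, a fibrillar collagen of the developing skeleton, had a TSS mark in 5 lists and was missing in 232P replicate 2, where peaks elsewhere in the gene covered 34.3% of it. COL5A1 had a TSS mark in 232P replicate 1 only, with a fold enrichment of 4.97, and peaks elsewhere in all lists.

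By the lowest TSS percentile over the lists and by merged width, the leading marks lay on fibril-associated, network and transmembrane collagens. COL12A1 (chr6:75084326-75206267), a fibril-associated collagen that links fibrils to their surroundings, ranked highest. The strongest peak near any of its 13 annotated starts reached percentile 96.5 or more in every list. This peak need not lie at the printed promoter. Its fold enrichment was 6.75 and 8.87 in WT, 6.56 and 10.4 in 231K, and 6.96 and 6.43 in 232P. Peaks covered 51.5% and 75.4% of the gene in WT, 53.9% and 80.5% in 231K, and 14.4% and 60.4% in 232P. All groups overlapped, and the low value belonged to the list with the least coverage. COL14A1, a fibril-associated collagen of tendon and skin on chromosome 8, had fold enrichments of 5.96 and 7.15 in WT, 5.54 and 8.75 in 231K, and 5.97 and 6.18 in 232P, at percentile 91.0 or more, and its coverage ran from 9.96% to 65.4%. COL21A1, another gene of this class, was marked in all lists but at lower ranks, down to percentile 34.8. The canonical starts of COL14A1 and COL21A1 were each marked in 5 lists. COL20A1 had peaks in its body in all lists and none at a TSS. The other 6 fibril-associated genes, COL9A1, COL9A2, COL9A3, COL16A1, COL19A1 and COL22A1, had no peak in any list.

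COL8A1 (chr3:99638475-99799226), a short-chain collagen that forms hexagonal networks in vessel walls and the cornea, had TSS fold enrichments of 9.93 and 10.5 in WT, 9.02 and 7.31 in 231K, and 5.97 and 6.82 in 232P. Both WT values were above all 4 Tau-KO values. The highest TSS summit of COL8A1 held few reads, 24 and 24 in WT, 21 and 17 in 231K, and 11 and 16 in 232P. The part of depth in this order was not tested. The lowest percentile of COL8A1 was 94.8. Peaks covered 45.4% and 73.6% of the gene in WT, 50.5% and 69.7% in 231K, and 15.6% and 57.3% in 232P. Its partner chain COL8A2 and the growth plate collagen COL10A1 had no peak in any list. COL25A1 (chr4:108808725-109302752), a transmembrane collagen made by neurons and found in amyloid plaques, carried the widest mark of all collagen genes, with merged peaks of 70747 bp. Its TSS fold enrichment was 5.16 and 6.55 in WT, 6.97 and 9.17 in 231K, and 5.97 and 10.2 in 232P. Both 231K values were above both WT values, while 232P overlapped WT and 231K. The median gene was also higher in 231K, since its strongest fold enrichment was 6.15 and 7.33 in 231K and 5.96 and 6.73 in WT. After centring on that median, the strongest fold enrichment anywhere in COL25A1 differed by -0.036 (log2, SE 0.19) in 231K and by 0.37 (SE 0.19) in 232P, with adjusted p = 0.998 and 1.00 by limma. Among the other transmembrane collagens, COL13A1 had a TSS mark only in the 3 replicate 2 lists, with fold enrichments of 3.54 in WT, 4.42 in 231K and 2.65 in 232P, COL23A1 had body peaks in 231K replicate 2 only, and COL17A1 had none.

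Basement membrane and beaded filament collagens were split within their families. COL4A3 and COL4A4 encode chains of the mature glomerular basement membrane and start next to each other on opposite strands of chromosome 2, and the promoter windows of both genes share 82 bases. Both were marked in all lists. The strongest COL4A3 TSS peak was enriched 5.90-fold and 9.25-fold in WT, 6.50 and 7.62 in 231K, and 5.47 and 7.06 in 232P. For COL4A4 these values were 7.54 and 9.25 in WT, 6.50 and 7.62 in 231K, and 5.47 and 7.06 in 232P. The values are equal in 5 lists because the strongest peak lay within 1 kb of starts of both genes, so that the pair shares 1 region, although each gene is counted on its own in the numbers of marked genes and starts. Peaks stood on both sides of the shared start, with 1241 and 1226 bp between them in WT, 1476 and 1326 bp in 231K, and 2252 and 1654 bp in 232P. The peak-free interval was longer in all 4 Tau-KO lists than in both WT lists. It was longest in the 232P replicate 1 list with its narrow peaks, and the part of peak width in this order was not tested. COL4A1 and COL4A2, the chains present in nearly all basement membranes, also overlap at their starts, and both lay in a stretch of 0.947 Mb without a peak in any list.

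**Figure D2:**
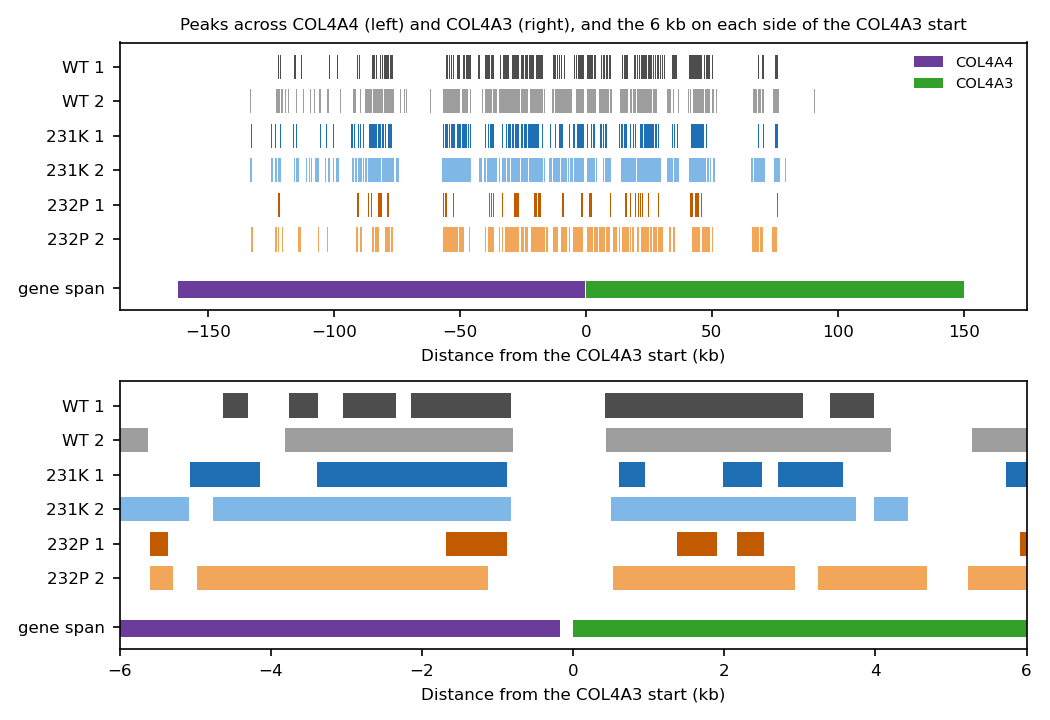
Peaks of the 6 lists over COL4A4 and COL4A3 as distance from the COL4A3 start in kb, for both gene spans (upper) and for 6 kb on each side of the start (lower). Bars are peaks, 1 row per list, and the coloured bars at the bottom are the gene spans; every list leaves the shared start free of peaks, over 1226 to 2252 bp.

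COL6A5 and COL6A6, more restricted chains of type VI collagen that lie next to each other on chromosome 3, were marked in all lists. The TSS fold enrichment of COL6A6 was 3.69 and 4.20 in WT, 5.41 and 5.84 in 231K, and 3.98 and 4.41 in 232P. Both 231K values were the highest, while WT and 232P overlapped. COL6A1, COL6A2 and COL6A3, the widely expressed chains of the same protein, had no peak in any list. COL15A1, a multiplexin of the basement membrane zone, had fold enrichments of 4.37 and 7.09 in WT, 5.95 and 5.76 in 231K, and 4.47 and 3.94 in 232P. WT overlapped both lines, and both 231K values were above both 232P values. Its family member COL18A1, the source of endostatin, had no peak. The anchoring fibril gene COL7A1 and COL28A1 were also free of peaks, and COL26A1 had body peaks only in all 6 lists. With COL11A1 and COL11A2, chains of type XI collagen, this accounts for all 22 genes without a peak in any list. COL11A2 had the nearest peaks, 6.66 kb and 21.8 kb away, so that its region was not without H3K27me3.

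Most of the collagen coverage came from few genes. In 8 genes, peaks covered a median of over 20% of the gene with 1 kb on each side, namely COL12A1 (57.1%), COL8A1 (53.9%), COL25A1 (48.8%), COL5A3 (45.6%), COL14A1 (40.9%), COL24A1 (29.1%), COL4A4 (27.2%) and COL4A3 (20.9%). These 8 genes held between 93.9% and 96.2% of the covered collagen length in each list. COL27A1, COL6A5 and COL6A6 had short marks mostly at the start, with a median coverage of 0.471%, 0.957% and 0.794%. COL15A1 had a median coverage of 3.56%, and 2 of its 17 merged marks lay at a TSS. Over all 42 genes, peaks covered 11.4% and 17.8% of the length in WT, 11.3% and 19.0% in 231K, and 3.44% and 13.7% in 232P. For all 19111 genes these values were 5.30% and 6.95% in WT, 4.97% and 7.22% in 231K, and 1.95% and 5.39% in 232P. The share over all 42 collagen genes was higher than that over all genes in every list, and the order of the lists was the same. This was not so for short genes. The 18 collagen genes under 100 kb were covered over 4.43% and 4.47% in WT, 3.11% and 4.39% in 231K, and 2.67% and 2.80% in 232P. All genes under 100 kb were covered over 4.61% and 5.61% in WT, 4.18% and 5.83% in 231K, and 2.14% and 4.28% in 232P. The short collagen genes were thus covered less in 5 lists and more in 232P replicate 1. The 24 longer collagen genes were covered over 3.55% to 21.1%, against 1.85% to 7.95% for all genes of 100 kb or more.

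**Figure D3:**
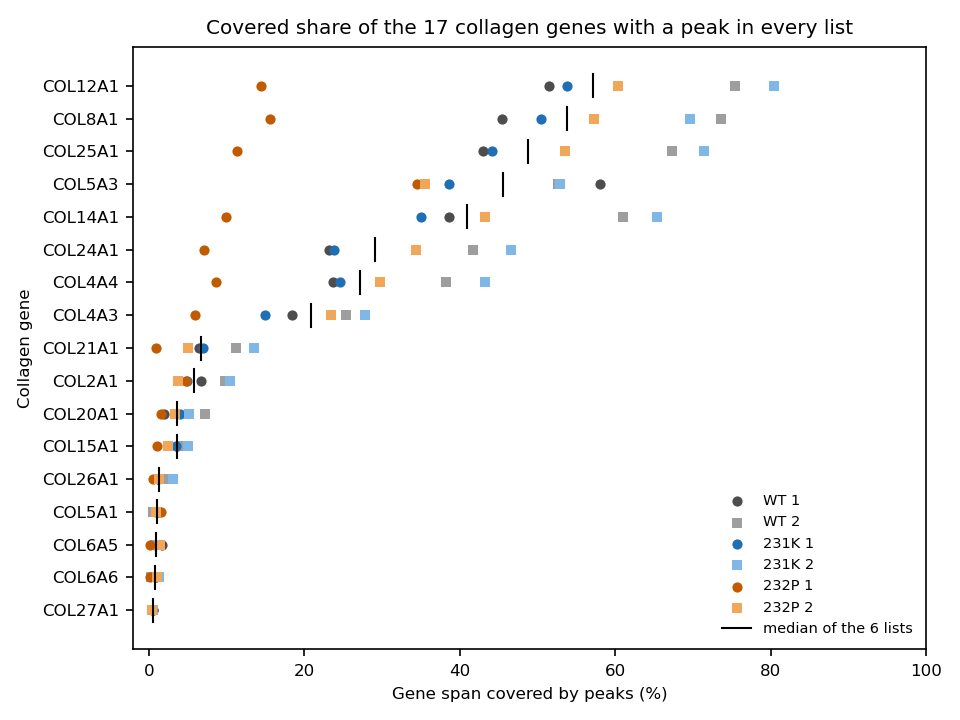
Share of each gene, with 1 kb on each side, covered by peaks (%, x axis) for the 17 collagen genes with a peak in all 6 lists, with 1 point per list and the median as a black line. Points of the replicate 2 lists (squares) mostly lie to the right of the replicate 1 lists (circles), and 232P replicate 1 is lowest for the 8 broadly covered genes.

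The marked collagen starts themselves were nearly free of peaks. Of the 11 collagen genes with a mark at the canonical start in all lists, the start base lay outside any peak in all 6 lists at 9 genes (81.8%). The exceptions were COL8A1, covered at the start base in 4 lists, and COL6A5, covered in 2. At COL12A1, the nearest peak began 96 to 364 bp upstream and 286 to 888 bp downstream of the start. At COL25A1, these distances were 453 to 633 bp and 361 to 946 bp. Averaged over lists, 9.09% of the 11 genes had a peak at the start base, 68.2% had one at 1 kb upstream and 69.7% at 1 kb downstream.

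All genes with a canonical mark in every list showed a shallower dip, with a peak at the start base in 41.0% of 1604 genes, and 37.5% of them were free at the start base in all lists. The dip went along with CG content. Within 500 bp of the canonical start, the marked collagen genes had a median of 70 CG dinucleotides, all 13 with at least 30, against a median of 27 for the 2063 marked genes, of which 48.8% had at least 30. Among the 731 genes with at least 30 CG and a canonical mark in all lists, 76.3% were free of peaks at the start base in all lists, and 10.9% had one there on average over lists. Among the 873 genes with fewer, 4.93% were free in all lists. The collagen share of 81.8% was thus near that of CG-rich marked genes as a whole. CG content alone did not separate the states, since the 25 collagen genes with no TSS mark ranged from COL28A1 with 2 CG to COL18A1 with 133. The threshold of 30 was chosen after the values were seen.

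**Figure D4:**
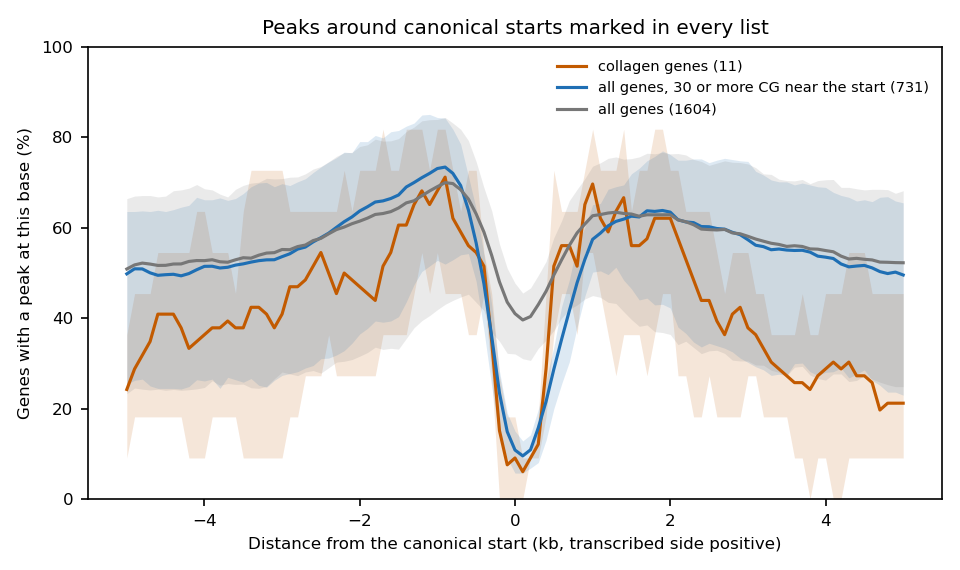
Percent of genes with a peak at each base (y axis) against distance from the canonical start in kb (x axis), for collagen genes, all genes with at least 30 CG near the start, and all genes with a canonical mark in every list. Lines are means and bands the lowest and highest of the 6 lists; the line of the 11 collagen genes falls to 9.09% at the start, that of the 731 CG-rich genes to 10.9% and that of all 1604 genes to 41.0%.

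The study also lists transcripts that were higher in Tau-KO cells by RNA sequencing, and that list names COL3A1, COL1A2, COL4A1, COL27A1, COL6A2, COL6A3, COL7A1, COL13A1, COL5A1 and COL11A2. Of these 10 collagen genes, 1 had a TSS mark in all lists (COL27A1), 2 in some lists (COL13A1 and COL5A1) and 7 in none, and the same 7 had no peak in any list, WT lists included. Of the other 32 collagen genes, 12 (37.5%) had a TSS mark in all lists and 15 (46.9%) had no peak. Peaks covered 0.331% and 0.260% of the length of the 10 genes in WT, 0.268% and 0.331% in 231K, and 0.406% and 0.259% in 232P. The share without a peak, 70.0% of the 10 genes, lies near the 75.0% of all genes, and the link of these lists to RNA was not tested.

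No collagen gene lost or gained its TSS mark in a Tau-KO line. A mark was called lost when both WT lists and neither list of the line had it, and gained in the opposite case. TSS marks in both WT lists were found at 14 collagen genes, of which 0 lost the mark in 231K, where 2.13% of 2822 genes did, and 0 in 232P, where 5.42% did. Of the 26 without a TSS mark in both WT lists, 0 gained it in 231K (0.159% of 15686 genes) and 0 in 232P (0.0765%). With so few collagen genes, a count of 0 lies near these background shares and does not set them apart. By the rule for any peak in the gene, 0 of 17 collagen genes lost their peaks in 231K (1.82% of 3619 genes) and 0 in 232P (4.7%), and 0 of 23 gained one in 231K (0.243% of 14785 genes) and 0 in 232P (0.101%). These counts rested on single lists at 3 genes. Without WT replicate 2, COL1A1 counted as lost in both lines, as did 6.65% of 3099 genes in 231K and 9.97% in 232P. Without 232P replicate 1, COL24A1 counted as lost in 232P, as did 11.5% of 2822 genes. Without 232P replicate 2, COL5A1 counted as gained in 232P, as did 0.669% of 15686 genes. With only peaks of a -log10 q-value of 5 or more, COL6A6 counted as gained in 231K, as did 0.208% of 16852 genes.

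For the 17 collagen genes with enough coverage, the covered length was compared with limma on log2(bp + 500), after centring each list on its median gene. No gene of 3640 tested had an adjusted p under 0.05 in 231K or 232P (0% called, Benjamini-Hochberg), and no collagen gene did. At an unadjusted p under 0.05 there were 70 genes in 231K and 159 in 232P, with 0 collagen genes in each. With the replicate number as a block, which pairs the samples in covered length, these were 103 genes in 231K with 0 collagen genes and 243 in 232P with 2, COL5A1 and COL21A1. The median log2 difference of the collagen genes was 0.11 in 231K and -0.11 in 232P, with -0.0047 and 0.0089 for all genes. Centring removes a change shared by all genes, so that these values do not show whether coverage changed as a whole. Before centring, the median gene covered in all lists had 6575 and 8180 bp in WT. It had 5849 and 8699 bp in 231K, and 2779 and 6058 bp in 232P. The median distance from an estimate to the end of its 95% interval was 1.10 in this fit without pairing. Smaller changes thus mostly did not reach even an unadjusted p under 0.05 by limma, and larger ones also failed to pass after adjustment. With the block this median distance was 0.896. The largest collagen differences from WT were both in 232P. COL5A1 had a log2 difference of 1.21 (SE 0.63) and COL21A1 one of -1.13 (SE 0.51), with adjusted p = 0.94 for both by limma. With the replicate block the SE was 0.40 and 0.36 and the adjusted p was 0.66 for both. Within replicates 1 and 2, the difference between 232P and WT was 1.43 and 0.98 for COL5A1 and -1.55 and -0.71 for COL21A1, with the same sign in both pairs. Leaving out a list breaks these pairs. Without 232P replicate 1, COL5A1 was at 0.41 and COL21A1 at -0.46. Without 232P replicate 2 they were at 2.01 and -1.79, with adjusted p = 0.0864 and 0.0817 by limma, in a fit where 1160 of 3570 genes had an unadjusted p under 0.05 and 172 genes shared the lowest adjusted p of 0.0817. COL5A1 was at 0.63 without WT replicate 2 and at 0.45 without centring. COL21A1 was at -1.89 without centring. Its sign changed when only peaks with a -log10 q-value of 5 or more were kept. No COL21A1 peak in WT or 232P reached that threshold, so that centring alone set the changed value. In the centred fit of all lists without the block, COL21A1 differed by -1.35 (SE 0.51) between 232P and 231K, more than either gene differed from WT. Its unadjusted p was 0.035 by limma, where 111 of 3640 genes were under 0.05, and its adjusted p was 0.897. Within replicates 1 and 2 this difference was -1.81 and -0.89.

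The strongest fold enrichment per gene, for the 2896 genes with a peak in all lists, gave narrower intervals, with a median distance of 0.42 from the estimate to the end. By limma with Benjamini-Hochberg adjustment, 0 genes passed in either line (0% called), against 118 in 231K and 136 in 232P at an unadjusted p under 0.05. The median log2 difference of the 17 collagen genes was -0.012 in 231K and -0.034 in 232P, with -0.019 and 0.013 for all genes. Here too, centring removed any change shared by all genes. The largest collagen difference was that of COL27A1 in 231K, -0.59 (SE 0.28, adjusted p = 0.998 by limma), which was -0.36 without WT replicate 1, and it was -0.37 (SE 0.28) in 232P. COL8A1 had the most negative value in 232P, -0.46 (SE 0.20, adjusted p = 1.00 by limma), and -0.32 (SE 0.20) in 231K. COL6A6 had 0.43 (SE 0.18, adjusted p = 0.998) in 231K and 0.27 (SE 0.18) in 232P. COL8A1 and COL6A6 were the collagen genes with an unadjusted p under 0.05, 1 in each line, and neither difference passed the threshold over all genes tested. Both comparisons share the WT lists.

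**Figure D5:**
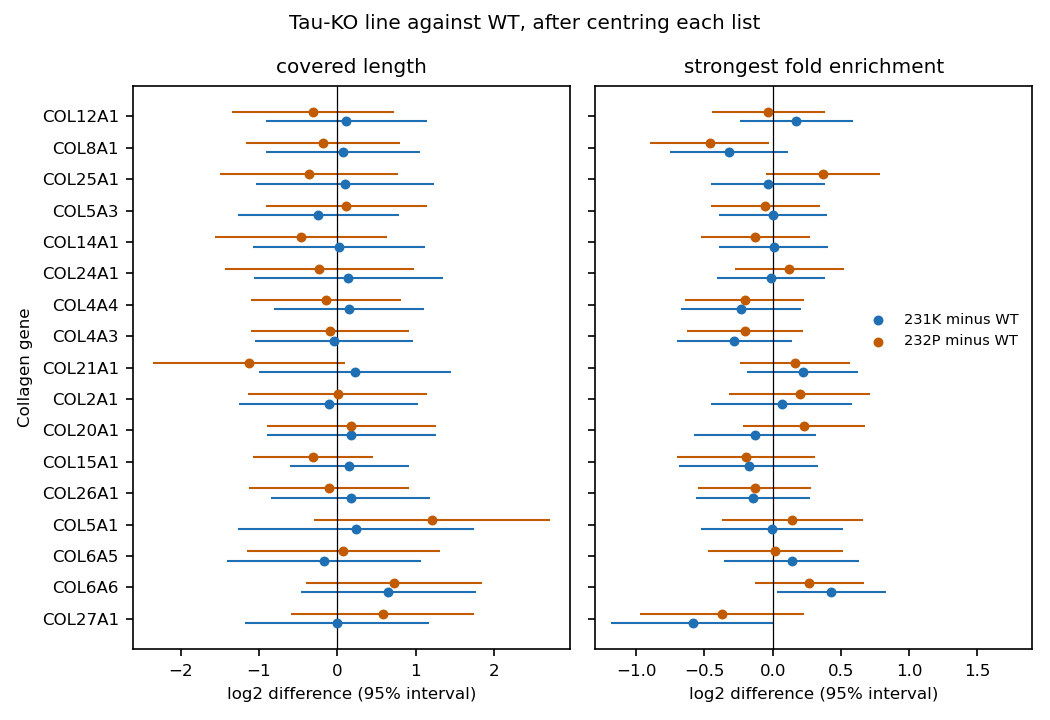
log2 difference of covered length (left) and of strongest fold enrichment (right) between each Tau-KO line and WT for the 17 collagen genes with a peak in all lists, with 95% intervals from limma. Nearly all intervals include 0; the exceptions are COL6A6 in 231K and COL8A1 in 232P on the right, which do not pass after adjustment.

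Marks were present at some genes that act on collagen, in shares to be read against the 10.8% of all genes with a TSS mark in all lists. Of the 17 collagen-modifying enzymes and chaperones, 2 (11.8%) had a TSS mark in all lists, PLOD2, a lysyl hydroxylase, and P3H2, a prolyl hydroxylase, and 15 had no peak in any list. PLOD2 had fold enrichments of 7.94 and 7.15 in WT, 6.15 and 8.34 in 231K, and 6.95 and 6.18 in 232P. Of the 13 genes for procollagen processing and cross-linking, TLL1, a procollagen C-proteinase, was marked in all lists (7.69%), and LOXL2, a lysyl oxidase, gained a TSS mark in 232P, as did 0.0765% of 15686 genes, with fold enrichments of 4.47 and 3.53 there and no TSS peak in the other 4 lists. Of the 11 collagen receptors, LAIR1 and GP6, receptors of blood cells, were marked in all lists (18.2%), and LAIR1 ranked at percentile 99.0 or more. Of the 19 fibril partners, FBN2, THBS2, TNXB and POSTN were marked in all lists (21.1%). Their lowest percentiles over the lists were 82.9, 38.5, 30.6 and 6.37, so that some of these marks were weak. The canonical start was marked in 6 lists at THBS2 and TNXB, in 4 at POSTN and in 1 at FBN2. Of the 10 mesenchymal markers, PRRX1, a mesenchymal transcription factor, had a TSS mark in all lists at percentile 99.4 or more, and 9 had none. Several of these shares lie near that of all genes, and none was tested. The lists carry no expression values, so that silence of these genes was not measured.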

How the data were processed

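Per the labels and methods, the authors fragmented chromatin by sonication, immune precipitated H3K27me3, used trimmomatic for trimming, BWA for mapping to hg38 and MACS (version 2) for peak calling per sample, without pooling replicates. The submitters' processing notes also name deepTools. The methods name the broadPeak setting, whereas the deposited lists have the 10 narrowPeak columns. The peak counts that the methods give per sample are also lower than those of every deposited list, so the lists used here differ from the peak sets described there. The control library, q-value threshold and treatment of duplicates are not given in the sources used here. The smallest -log10 q-value per list was 0.824 to 0.842. The 6 input samples were not analysed here, and all 6 peak lists were used.

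In the deposited lists, fold enrichment (column 7) is the ratio (summit reads + 1) to (local background + 1). The deposited -log10 p-values and -log10 q-values (column 9) describe the summit. A score of 10 times the -log10 q-value was also deposited and was not used. The values in these columns are those of each list on its own, and the normalized counts that the methods describe for differential binding were not used here. Whole summit reads were recovered for 100% of peaks, within 0.001 of the -log10 p-value, and the lowest background divided by the smallest peak width of the list, taken as its fragment length, gave relative depth. No read totals, and hence no counting intervals, were given.

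Peaks were intersected with GENCODE release 44 genes with 1 kb on each side, and merged across lists when they overlapped by at least 1 bp. Covered length used a pseudocount of 500 bp and genes with at least 500 bp in at least 2 lists. Tests used limma 3.58.1 (R 4.3.3, two-sided, threshold 0.05, all genotypes in 1 fit), and intervals are 95%. Other steps used Python 3.11.15 with pandas 2.3.3 and numpy 2.4.6. The fits were tested on simulated data, and the outcome is not reported here. CG counts within 500 bp of starts were read from the hg38 genome. Replicates with the same number deviated together in covered length (correlations 0.319, 0.415 and 0.280 between genotypes over genes), so the replicate number pairs the samples. The values in the text come from the fit without the block unless stated. For strongest fold enrichment these were 0.0632, 0.122 and 0.0514, which does not pair them. The source of the pairing is not given.

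Members and lists were chosen with earlier results of these data known. Named were COL1A1, COL1A2, COL3A1, the 8 genes marked in all lists with the highest lowest percentile, genes of the study's RNA list, genes sharing a start region, genes without a peak, and genes with a lost or gained mark. Of the other lists, genes with a lost or gained mark and at most 4 marked in all lists were named. Further genes were named after their values were seen. The result of a list of cell type markers is not reported here. The alternatives were a threshold of 5 on -log10 q, 147118 strongest peaks per list, the canonical start alone, a 2.5 kb window, a pseudocount of 100 bp, no filter, no centring, the replicate block and leaving out each replicate.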

Additional observations from a re-analysis of the deposited data

Results flagged for a closer look

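In COL15A1, the centred covered length was higher in both 231K lists and lower in both 232P lists than in both WT lists, which drew attention to it. The log2 difference from WT was 0.15 (SE 0.32, adjusted p = 1.00 by limma) in 231K and -0.31 (SE 0.32, adjusted p = 0.94) in 232P, so that neither passed. The log2 difference between 232P and 231K was -0.46, and it did not pass the limma test of that difference (adjusted p = 0.897, Benjamini-Hochberg). Without centring, 231K replicate 1 with 4596 bp was below both WT lists with 4622 and 5465 bp. The strongest fold enrichment of COL15A1 had log2 differences of -0.18 in 231K and -0.20 in 232P (SE 0.23 for both), which do not point in opposite directions.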

How the results depend on the processing

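When peaks needed a -log10 q of 5 or more, the number of collagen genes with a TSS mark in all lists fell from 13 to 4 (COL8A1, COL25A1, COL12A1 and COL14A1), and COL6A6 counted as 1 gained mark in 231K, as did 0.208% of 16852 genes. Under that setting the covered length of COL21A1 in 232P changed from -1.13 to 1.51 on the log2 scale. The highest -log10 q of a COL21A1 peak was 4.56 and 4.45 in WT and 3.06 and 4.56 in 232P. No COL21A1 bases were thus covered in either group under that setting. The value of 1.51 came from the centring of the lists alone and is no difference in COL21A1. The number was 12 with equal numbers of peaks, 11 at canonical starts, 14 with the 2.5 kb window and 13 to 14 when a replicate was left out. When a replicate was left out, lost marks were 0 to 1 in 231K and 0 to 1 in 232P, and gained marks 0 to 0 and 0 to 1. The share with a TSS mark, averaged over lists, was 4.01 percentage points higher in fibrillar than in other collagen genes, with 2.17 to 6.45 when a replicate was left out and -1.37 at the threshold of 5, so that its sign changed under that setting. With the replicate block, limma called 0 genes in both measures and both lines, so the block changed no call, and the lowest adjusted p of a collagen gene was 0.66 for covered length. The other settings also called 0 genes, with lowest adjusted p-values of 0.0817 for covered length (172 genes in 232P, COL21A1 among them, without 232P replicate 2) and 0.109 for strongest fold enrichment. Without 1 replicate, the lone list of a genotype was assumed to vary like the others. Weak peaks near the threshold and the unequal depth of the lists limit what an absent peak shows.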
